A study of Mus musculus with 6 samples.

Results

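The subject was a family of 10 receptor genes for hematopoietic growth factors, chosen by symbol from the 32285 mouse genes in the deposited feature lists: Kit, Flt3, Csf1r, Csf3r, Csf2ra, Il3ra, Csf2rb, Csf2rb2, Il6ra and Il6st. All 10 symbols were found. Their RNA was followed in single cells of bone marrow from BALB/c mice that were 10 weeks old at harvest. The 3 groups were non-tumor-bearing mice without treatment (NTB), mice carrying orthotopic 4T1 tumors that received DPBS vehicle, and 4T1-bearing mice that received brequinar (BRQ), an inhibitor of the pyrimidine synthesis enzyme DHODH. 4T1 is a mouse mammary carcinoma line that was placed in the mammary gland. BRQ was injected intraperitoneally at 10 mg/kg every day for 2 weeks, starting once tumors could be measured, and vehicle followed the same schedule. Each group had 3 mice, and each of 3 pools held 1 mouse of every group, so that pool 1, for example, contained NTB 1, vehicle 1 and BRQ 1. All marrow, from all 3 groups, was enriched on magnetic beads for cells with c-Kit protein, the product of Kit, before capture. Kit was therefore selected for in every group, and the bearing of that selection on differences in Kit RNA was not tested.

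Growth factor receptors relay signals from secreted cytokines and set which marrow progenitors survive, divide and mature. Kit, Flt3 and Csf1r are receptor tyrosine kinases, which phosphorylate themselves and downstream proteins after binding stem cell factor, Flt3 ligand, and Csf1 or interleukin-34. The other members belong to the cytokine receptor family, which has no kinase of its own and signals through bound JAK kinases to STAT transcription factors. Csf3r binds G-CSF, the main growth factor of neutrophils, as a pair of identical chains. Csf2ra and Il3ra bind GM-CSF and interleukin-3 and need a shared beta chain, Csf2rb, to signal, while Csf2rb2 is a second beta chain of mice that serves the interleukin-3 receptor. Il6ra binds interleukin-6 and signals through Il6st, a chain shared with other cytokines.

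Cells were assigned to mice by the oligonucleotide tags of 3 hashing antibodies, the tags that separate the treatment groups in every result below. Tag B0301 marked NTB cells, B0302 marked vehicle cells and B0303 marked BRQ cells, with these 15-base sequences in capitals.
B0301: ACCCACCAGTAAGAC
B0302: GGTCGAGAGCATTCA
B0303: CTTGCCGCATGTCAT

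The 3 pools held 13750, 11441 and 14297 barcodes with 128035770, 100700982 and 135564079 gene UMIs (unique molecular identifiers, each one a captured RNA molecule), and medians of 7996.5, 7445 and 7445 UMIs per barcode. Barcodes shared between 2 pools numbered 26 to 37. After filters and tag calls 15966 cells belonged to 1 mouse, between 382 (vehicle 2) and 2780 (vehicle 1) per mouse. Clustering without the receptor genes gave 19 clusters, which were named from marker genes. Clusters 0 (led by Fkbp11, Ctsg and Cst7) and 1 (Elane, Prtn3, Nkg7) were granulocyte-monocyte progenitor (GMP)-like, and clusters 2, 3, 4 and 7 were neutrophil-like. Cluster 5 (Ms4a6c, Irf8, F13a1) was monocyte/monocyte-dendritic progenitor (MDP)-like, and cluster 6 (Hlf, Meis1, Mecom) was hematopoietic stem cell/multipotent progenitor (HSC/MPP)-like. Cells with a log-normalised Ms4a3 value above 3 on a natural log scale were also taken as a unit, after the study, which cut its GMPs at a scaled Ms4a3 value from another normalisation, so the cells chosen need not be the same. There were 3916 such Ms4a3-high GMPs, of which 88.1% lay in the GMP-like clusters. The limit cuts a continuous range, since 3733 cells lay within 0.25 of it, 1988 of them above. Counts were summed per mouse and unit, and sums of fewer than 20 cells were not used, which removed vehicle 2 (12 cells) from the HSC/MPP-like class and NTB 1 and vehicle 2 from the erythroid-like class. Levels are CPM, UMI counts scaled to 1000000 gene UMIs in each sum, and values of 3 mice are always given in the order of pools 1, 2 and 3. Libraries were 3′ tagged, so a gene's level was compared between cells and not with another gene. Every p-value rests on the spread between these mice.

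Levels were ordered over the 9 named classes. Clusters 9, 10, 14 and 15 had no name and stand outside that order. Among the tyrosine kinase receptors, Kit was highest in HSC/MPP-like cells, at 231.6 ± 48.2 CPM (SD, n = 8 mice), and this range of 184.7 to 309.0 did not overlap that of erythroid/megakaryocyte-erythroid progenitor (MEP)-like cells, next in order at 120.1 ± 37.1 (n = 7). Below these, eosinophil-like (106.8 ± 20.8, n = 4), GMP-like (75.7 ± 19.3, n = 9), B progenitor-like (73.6 ± 39.5, n = 3) and monocyte/MDP-like cells (72.8 ± 16.7, n = 9) overlapped as neighbours. Neutrophil-like cells (36.6 ± 26.7, n = 9) and macrophage-like cells (24.4 ± 17.9, n = 3) were lowest. Outside the named classes, cluster 9 held Kit at 139.6 ± 54.9 (n = 6), and its range of 83.3 to 204.1 overlapped the HSC/MPP-like one. Summed by pool over all kept barcodes, also those assigned to no mouse, Kit was at 21.3 to 35.4 in neutrophil-like and 33.8 to 57.2 in macrophage-like cells, and of 80 levels compared in this way 5 moved by more than 1 SD over mice. With cells thinned to 2000 UMIs and shallower ones left out (18 of 1242 HSC/MPP-like, 56 of 6385 GMP-like and 84 of 200 macrophage-like cells), a Kit UMI was found in 40.3% of HSC/MPP-like cells (95% Wilson interval 37.6 to 43.1), 13.02% of GMP-like cells and 3.45% of macrophage-like cells (4 of 116). Unthinned, the shares were 84.4%, 52.4% and 9.0% at median depths of 8864, 12835 and 2732 UMIs. Macrophages are not known to need Kit, and their share is given as the background that free RNA can leave. Intervals cover counting error only.

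Flt3, the receptor of early lymphoid and dendritic progenitors, followed the order HSC/MPP-like (103.0 ± 20.6 CPM, n = 8), B progenitor-like (46.6 ± 15.4, n = 3) and monocyte/MDP-like (17.5 ± 5.89, n = 9), and none of these neighbours overlapped over mice. Over all kept barcodes by pool the B progenitor-like level was 21.1 to 22.9 and overlapped the 14.8 to 23.2 of monocyte/MDP-like cells, with the order turned in pool 2. Outside the named classes Flt3 was higher still in cluster 15 (led by Dntt, Il7r, Cox6a2 and Siglech), at 212.7 ± 81.4 over 4 mice, whose range of 137.6 to 292.5 lay above all HSC/MPP-like values, and it was at 79.6 ± 22.6 (n = 3) in cluster 14 (H2-Aa, Cd74, H2-Ab1). GMP-like cells held 0.989 ± 0.580, and no mouse exceeded 1.84. Thinned to 2000 UMIs, 18.1% of HSC/MPP-like cells and 0.158% of GMP-like cells held a Flt3 UMI, against 46.0% and 1.35% unthinned, at median depths of 8864 and 12835 UMIs. Csf1r, the receptor that sustains monocytes and macrophages, was highest in macrophage-like cells (364.9 ± 223.6, n = 3), then in monocyte/MDP-like (83.9 ± 11.5, n = 9) and neutrophil-like cells (20.2 ± 20.6, n = 9), again without overlap between these neighbours. GMP-like cells were at 3.52 ± 1.31.

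Csf3r was highest in neutrophil-like cells at 482.0 ± 420.7 CPM, but the range over 9 mice ran from 117.6 to 1251 and overlapped the eosinophil-like cells (163.0 ± 78.6, n = 4). Macrophage-like cells followed at 141.6 ± 44.4 (n = 3), GMP-like cells at 106.8 ± 15.4, HSC/MPP-like cells at 84.5 ± 12 and monocyte/MDP-like cells at 62.7 ± 10.5, overlapping as neighbours. Csf2ra had its highest level in neutrophil-like cells (128.2 ± 7.49), clear of GMP-like cells (88.7 ± 15.3). Il3ra levels were low and graded, from 27.5 ± 7.27 in eosinophil-like cells and 25.8 ± 5.45 in monocyte/MDP-like cells through 20.1 ± 4.89 in HSC/MPP-like cells to 12.1 ± 2.04 in GMP-like and 9.03 ± 3.61 in neutrophil-like cells, with overlap between neighbours. The eosinophil-like class was shallow, at a median of 2257 UMIs, and 65.1% of its 513 cells came from pool 3. At clustering resolution 0.5 the eosinophil-like cluster held 104 cells. Csf2rb was at 181.9 ± 181.3 (n = 4) in eosinophil-like and 176.8 ± 112.7 (n = 9) in neutrophil-like cells, which could not be ranked. The eosinophil-like sums were 54.4 in NTB 3, 439.5 in vehicle 1, 55.7 in vehicle 3 and 178.1 in BRQ 3, so that 1 mouse carried the mean, and the medians were 116.9 and 137.0. Csf2rb then stood at 74.3 ± 25.1 in monocyte/MDP-like, 68.3 ± 35.5 in HSC/MPP-like and 58.5 ± 28.8 in GMP-like cells, with overlap at every step. Csf2rb2 followed with 28.5 ± 21.1 (n = 4) in eosinophil-like, 19.5 ± 13.1 in neutrophil-like, 8.65 ± 5.62 in HSC/MPP-like, 6.49 ± 2.81 in monocyte/MDP-like and 3.86 ± 2.13 in GMP-like cells. The unnamed cluster 9, led by Pf4, Prss34, Mcpt8 and Cpa3, held more Csf2rb2 than any named class by mean, at 71.5 ± 25.2 (n = 6, 45.6 to 117.2). Il6ra ran from 90.7 ± 33.2 in macrophage-like and 66.7 ± 13.6 in monocyte/MDP-like cells to 41.4 ± 33.7 in neutrophil-like, 28.5 ± 5.27 in HSC/MPP-like and 9.12 ± 3.20 in GMP-like cells, each overlapping the next in order. Among named classes Il6st was highest in monocyte/MDP-like cells, at 153.6 ± 33.8 (101.9 to 211.4), whose range did not overlap the 39.8 ± 7.88 of HSC/MPP-like cells. The unnamed cluster 15 overlapped it, at 127.8 ± 39.6 (n = 4, 78.3 to 173.2), as did cluster 14, at 78.2 ± 47.1 (n = 3, 28.7 to 122.5). Il6st was close to nil in GMP-like (3.93 ± 1.63) and neutrophil-like cells (2.71 ± 1.56).

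**Figure D1:**
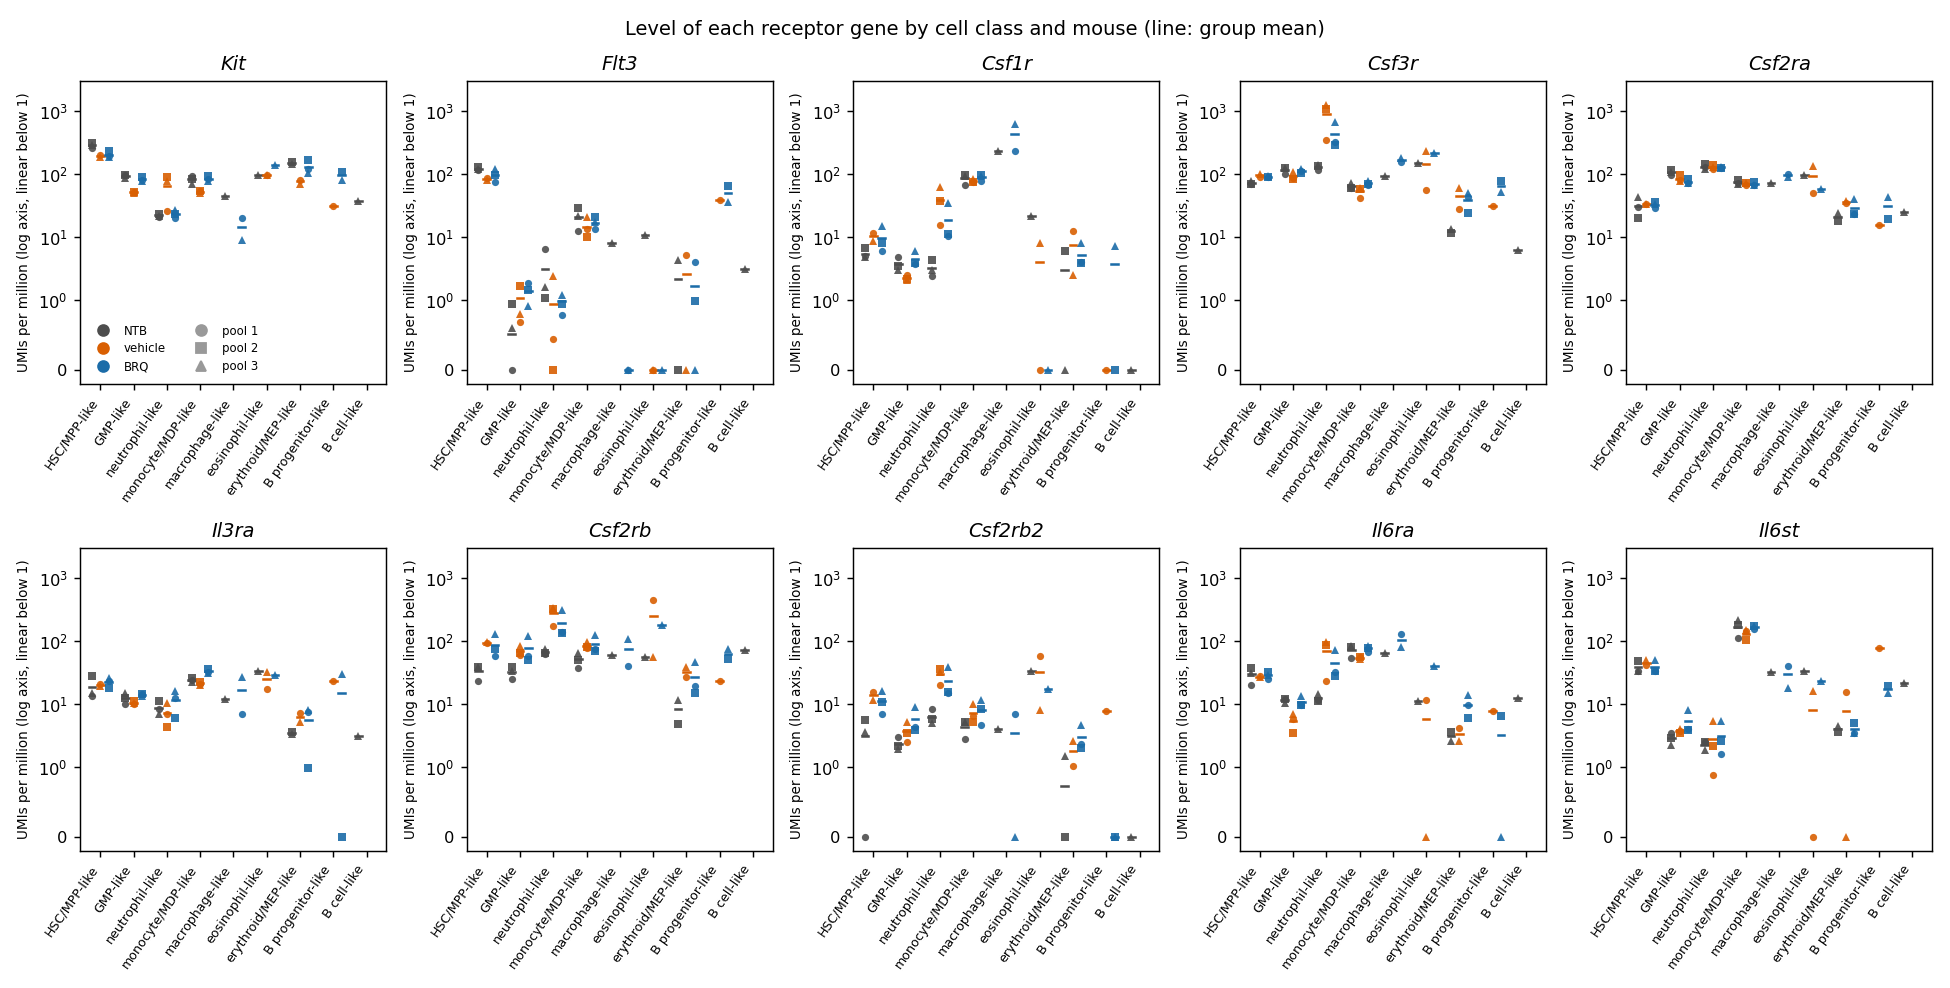
Level of each of the 10 receptor genes, in CPM on a log axis that is linear below 1, in 9 cell classes named from markers; the 4 unnamed clusters are not drawn. Each symbol is 1 mouse (grey NTB, orange vehicle, blue BRQ; circle pool 1, square pool 2, triangle pool 3) and lines are group means; among these classes Kit and Flt3 peak in HSC/MPP-like cells, Csf1r in macrophage-like cells, Csf3r in neutrophil-like cells and Il6st in monocyte/MDP-like cells.

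The genes whose level most resembled each receptor gene over 53 sums by class and mouse (9 classes, 10569 genes, Pearson r of log2(CPM + 1), a description only, since sums of 1 mouse share a library) were these. Kit was closest to Mc5r (0.875), Jpx (0.837) and Stat5a (0.832), the last a STAT activated by cytokine receptors. Flt3 was closest to Epb41l4b (0.876), Gpr171 (0.848) and Maml3 (0.828). Csf1r was closest to Abca9 (0.836), Cfp (0.825) and the macrophage gene Mpeg1 (0.825). Csf3r was closest to Skap2 (0.881), Alox5ap (0.872) and Mtus1 (0.870). Csf2ra went with Cebpb (0.905), a myeloid transcription factor, Ncf1 (0.893), a subunit of the phagocyte oxidase, and Atp6v0b (0.887). Il3ra went with Plppr3 (0.829), Emilin1 (0.80) and Cnpy3 (0.775). Csf2rb went with Myd88 (0.753), Spi1 (0.728) and Lcp1 (0.723), and Csf2rb2 with Mboat7 (0.747), Lmo4 (0.715) and Csf2rb itself (0.703). Il6ra went with Pkib (0.826), 9930111J21Rik2 (0.826) and Cd14 (0.798). Il6st was closest to Irf8 (0.921), the transcription factor of monocyte and dendritic progenitors, Rasa4 (0.891) and Pou2f2 (0.868).

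The 3 comparisons of the design asked how tumors change the receptors (vehicle against NTB), how BRQ changes them in tumor-bearing mice (BRQ against vehicle) and how treated tumor-bearing mice stand against tumor-free ones (BRQ against NTB). They share mice, so each is given on its own values. In Ms4a3-high GMPs 9 of the 10 genes had enough counts to test (Flt3 did not), and edgeR's quasi-likelihood test with Benjamini-Hochberg adjustment over all genes called 3 in vehicle against NTB (Csf2rb higher, Kit and Il6ra lower), where 11.3% of all 10331 genes tested were called. In BRQ against vehicle it called 3 (Kit, Csf1r and Il6ra, all higher; 13.4% of all genes called and 6.08% higher), and in BRQ against NTB 2 (Csf2rb higher, Csf2ra lower; 6.01%). In GMP-like clusters, with 24.7%, 13.8% and 14.7% of 11033 genes called, 5, 4 and 3 of 10 members were called. In monocyte/MDP-like cells, with 3.77%, 5.72% and 3.12% of all genes called, 3, 4 and 1 of 10 members were called, the 4 of BRQ against vehicle all higher beside 2.69% of all genes. HSC/MPP-like cells gave 3 of 10 members in vehicle against NTB and 3 in BRQ against NTB, each beside 5.10% of all genes, and DESeq2 called 2 in each.

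In BRQ against vehicle edgeR called 0 of 10 members in HSC/MPP-like cells, where only 0.0195% of all genes were called. None had an unadjusted p under 0.05, and DESeq2 also called 0. Neutrophil-like cells gave 6 of 8 tested members in vehicle against NTB (9.89% of all genes called, 6.23% higher) and 2 in BRQ against NTB (3.27% called, 2.40% higher). For BRQ against vehicle edgeR called 0 of the 8 (0.105% of all genes), with 3 at an unadjusted p under 0.05 and 1 called by DESeq2. Erythroid/MEP-like cells, with 4 members tested, gave 2 in vehicle against NTB (1.05%) and 1 in BRQ against NTB (0.378%). There edgeR called 0 in BRQ against vehicle (0.122%), with 1 at an unadjusted p under 0.05 and 0 by DESeq2.

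Counted instead by whether the mice of the groups lay apart without overlap, in the order vehicle against NTB, BRQ against vehicle and BRQ against NTB, members were read against the share of all genes apart. Of the 9 tested in Ms4a3-high GMPs 4, 3 and 4 were apart, against 28.4%, 30.7% and 25.9% of all genes. Of 10 in GMP-like clusters 5, 4 and 4 were apart (37.5%, 31.0% and 30.9%), of 10 in HSC/MPP-like cells 6, 0 and 4 (30.9%, 21.8% and 22.6%) and of 10 in monocyte/MDP-like cells 3, 4 and 2 (21.2%, 24.3% and 20%). Neutrophil-like cells had 6, 2 and 5 of 8 apart (28.7%, 12.6% and 31.1%), and erythroid/MEP-like cells 4, 1 and 2 of 4 (38.2%, 24.6% and 25.2%).

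**Figure D2:**
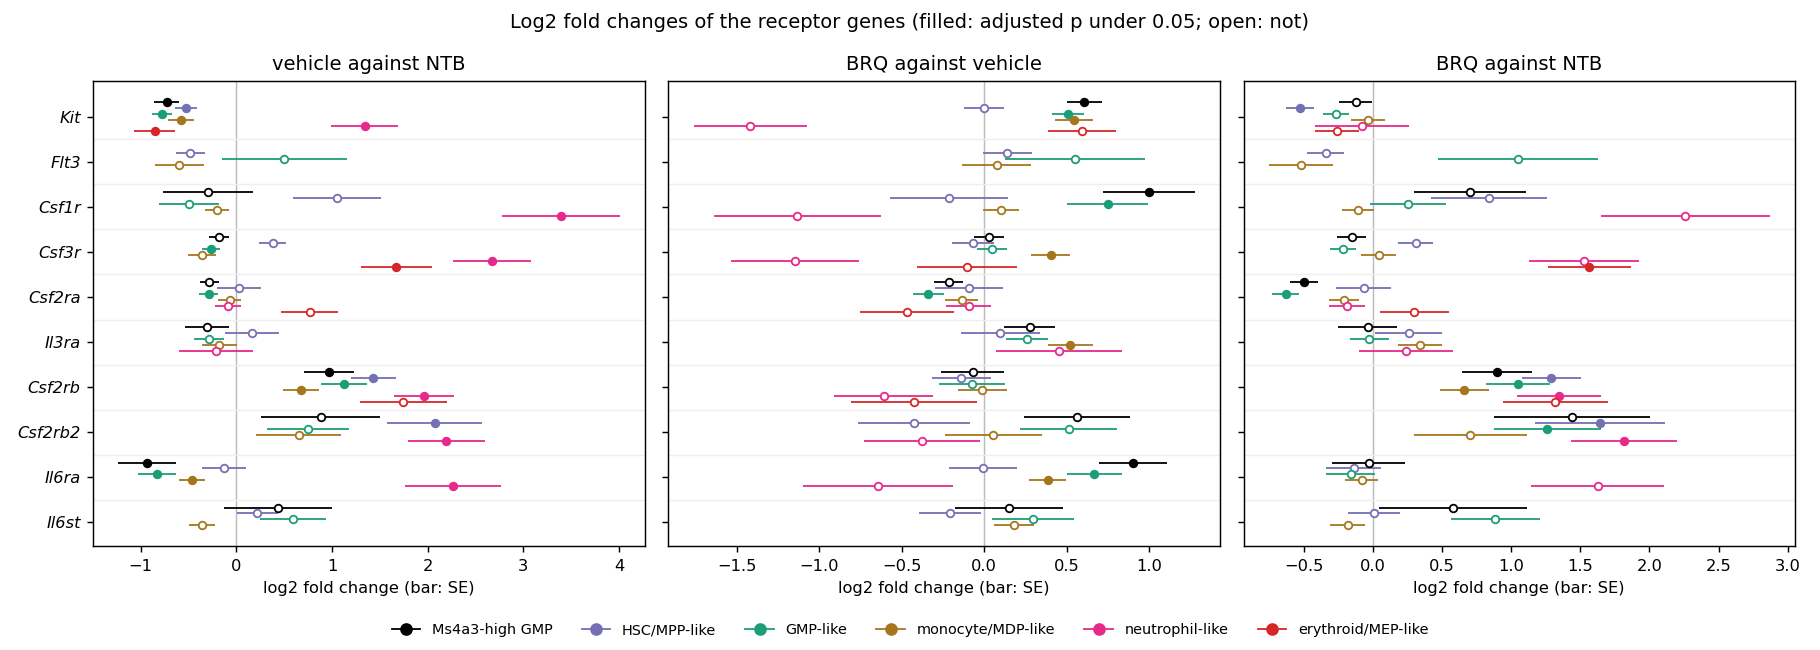
Log2 fold change (point) with its SE (bar) of each receptor gene in the 3 comparisons, by cell unit in colour; filled points have an adjusted p under 0.05. Kit lies below 0 in vehicle against NTB in all units but the neutrophil-like class and above 0 in BRQ against vehicle in Ms4a3-high GMPs, GMP-like and monocyte/MDP-like cells, while Csf2rb lies above 0 in both comparisons with NTB in every unit.

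Kit lies at chr5:75574916-75656722 (GRCm38, plus strand) and Il6ra at chr3:89864059-89913196 (minus strand, where the noncoding gene Gm42809 overlaps it). Their levels moved alike in GMPs, and the bases before their starts are shown for that reason. The sequences are from RefSeq (GRCm38.p6), 5′ to 3′ on the gene's strand, with the letters GAGGAA, a purine core of the kind that the myeloid factor PU.1 binds, or their reverse complement TTCCTC in capitals. Kit is shown over 179 bases, chr5:75574737-75574915, and Il6ra over 250 bases, chr3:89913197-89913446.
Kit: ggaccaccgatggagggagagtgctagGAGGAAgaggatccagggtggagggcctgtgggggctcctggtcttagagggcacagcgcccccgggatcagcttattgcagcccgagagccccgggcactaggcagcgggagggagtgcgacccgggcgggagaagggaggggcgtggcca
Il6ra: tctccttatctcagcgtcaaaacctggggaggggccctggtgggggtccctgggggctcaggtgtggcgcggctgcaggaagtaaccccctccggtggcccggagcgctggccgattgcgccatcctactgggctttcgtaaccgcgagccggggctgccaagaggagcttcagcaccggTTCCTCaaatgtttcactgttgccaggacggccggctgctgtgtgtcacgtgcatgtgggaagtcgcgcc
Each holds 1 such match in the 250 bases before its RefSeq start, as do 23.1% of 27025 promoters of that length (6252), on either strand. The match is a description of letters and not of a bound site. Of the 8 members whose promoters were found in the table, Csf3r and Csf2rb2 also held 1, Csf2ra 2, and Flt3, Il3ra and Il6st 0. RefSeq places the starts of Kit, Csf3r, Csf2ra and Il3ra inside the gene as GENCODE draws it, so that only 179, 141, 239 and 30 of their 250 bases lie before the positions given here. The match of Csf3r and those of Csf2ra are not wholly within these bases.

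Kit RNA in Ms4a3-high GMPs was lower in every vehicle mouse than in any other mouse. It stood at 59.1, 82.0 and 68.6 CPM in NTB mice and at 69.2, 80.7 and 68.5 in BRQ mice. Vehicle mice had 42.7, 38.5 and 42.04, below both other groups without overlap. The log2 fold change was -0.73 (SE 0.129, adjusted p = 0.000757) for vehicle against NTB and 0.60 (SE 0.106, adjusted p = 0.000453) for BRQ against vehicle, and both calls held in all 18 alternative settings. BRQ against NTB gave -0.12 (SE 0.119, adjusted p = 0.609). Within pools the ratio of vehicle to NTB was 0.723, 0.470 and 0.612, and that of BRQ to vehicle was 1.62, 2.09 and 1.63.

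The same order was present in GMP-like clusters, where Kit stood at 94.99, 97.0 and 84.9 CPM in NTB mice, at 51.5, 52.4 and 49.7 in vehicle mice and at 81.2, 91.0 and 78.7 in BRQ mice. Vehicle lay apart from both other groups. The log2 fold changes were -0.78 (SE 0.104, adjusted p = 3.3e-05) and 0.51 (SE 0.097, adjusted p = 0.00137). Both were lost with the limits on cells read as UMIs (-0.71, adjusted p = 0.218, and 0.50, adjusted p = 0.689). BRQ against NTB was -0.27 (adjusted p = 0.0694). With the pool as a block this last difference passed (-0.27, adjusted p = 0.00621), and it also passed without NTB 3 (-0.37, adjusted p = 0.0363) or BRQ 2 (-0.34, adjusted p = 0.0266). Taken singly, a division chosen after the data were seen, cluster 0 gave -0.85 and 0.41 (adjusted p = 3.38e-05 and 0.00866; 15.6% and 11.7% of all genes called) and cluster 1 gave -1.14 and 0.74 (adjusted p = 6.24e-06 and 0.00127; 17.1% and 9.76%) for the same comparisons. The rise in cluster 0 was not called with cells thinned to 4000 UMIs (0.41, adjusted p = 0.0765). Kit in monocyte/MDP-like cells was at 92.3, 83.6 and 69.6 in NTB mice, 54.7, 53.5 and 49.9 in vehicle mice and 82.5, 92.6 and 76.9 in BRQ mice. It fell by 0.58 on the log2 scale with tumor (SE 0.139, adjusted p = 0.0184) and rose by 0.55 with BRQ (SE 0.117, adjusted p = 0.00597). The fall was not called without NTB 1, NTB 2, vehicle 2 or vehicle 3, with fold changes of -0.58 to -0.49 and adjusted p of 0.0545 to 0.140, nor with tag ratios (-0.40, adjusted p = 0.0747). With cells thinned to 4000 UMIs neither the fall (-0.60, adjusted p = 0.299) nor the rise (0.54, adjusted p = 0.178) was called.

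HSC/MPP-like cells differed from this pattern. Their Kit level was 259.2, 309.0 and 287.0 CPM in NTB mice, 202.2 and 184.7 in vehicle 1 and vehicle 3, and 192.5, 229.8 and 188.3 in BRQ mice. BRQ and vehicle mice overlapped, and both stood below every NTB mouse. The log2 fold changes were -0.53 for vehicle against NTB (SE 0.118, adjusted p = 0.00469), -0.53 for BRQ against NTB (SE 0.101, adjusted p = 0.00098) and 0.00 for BRQ against vehicle (SE 0.122, adjusted p = 1.00). The vehicle call was lost without vehicle 1 (-0.62, adjusted p = 0.0838) or vehicle 3 (-0.45, adjusted p = 0.0535), with cells thinned to 4000 UMIs (-0.47, adjusted p = 0.131) and at clustering resolution 0.5 (-0.43, adjusted p = 0.0557). Both calls were lost where the limits of 500 and 7500 on cells were read as UMIs and not as genes, which removes the deeper cells (-0.41, adjusted p = 0.689, and -0.36, adjusted p = 0.547). The BRQ effect on Kit was 0.51 lower on the log2 scale in HSC/MPP-like than in GMP-like cells (-0.51, SE 0.118, adjusted p = 0.00735 in a joint edgeR fit over 8 mice), where 2.58% of all genes differed. In erythroid/MEP-like cells Kit was at 156.3 and 145.9 in NTB 2 and NTB 3, at 81.6 and 70.6 in vehicle 1 and vehicle 3 and at 118.3, 165.3 and 102.5 in BRQ mice. The vehicle value was lower by 0.85 on the log2 scale (-0.85, SE 0.213, adjusted p = 0.0499). That call was lost with the pool as a block (-0.78, adjusted p = 0.126) and without each of NTB 2, NTB 3, vehicle 1, vehicle 3 and BRQ 1 (-1.04 to -0.76, adjusted p of 0.0810 to 0.362), and with DESeq2 (-0.87, adjusted p = 0.154).

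Il6ra fell and rose with Kit in GMPs. In Ms4a3-high GMPs it stood at 11.02, 5.47 and 12.1 CPM in NTB mice, 5.16, 4.21 and 4.34 in vehicle mice and 9.34, 8.81 and 13.03 in BRQ mice. All 3 vehicle mice were below all other mice. The log2 fold change was -0.93 with tumor (SE 0.300, adjusted p = 0.0458) and 0.90 with BRQ (SE 0.207, adjusted p = 0.00478), and the value of BRQ mice against NTB was -0.03 (adjusted p = 0.968). The fall was not called without NTB 1, NTB 3, vehicle 1, vehicle 2 or vehicle 3, at -1.14 to -0.67 with adjusted p of 0.0693 to 0.371, nor with tag ratios, thinned cells or an Ms4a3 limit of 2.5 (-0.79 to -0.53, adjusted p of 0.105 to 0.389). The rise lost its call in 1 of 18 settings, with cells thinned to 4000 UMIs (0.76, adjusted p = 0.150). In GMP-like clusters Il6ra was at 11.7, 11.9 and 10.1 in NTB mice, 5.78, 3.38 and 6.88 in vehicle mice and 9.46, 9.64 and 13.2 in BRQ mice, again with vehicle apart. It fell by 0.83 (SE 0.200, adjusted p = 0.0049) and rose by 0.67 (SE 0.168, adjusted p = 0.0111). The rise was not called without vehicle 1 (0.69, adjusted p = 0.0762) or with cells thinned to 4000 UMIs (0.81, adjusted p = 0.0513), and neither was called with the limits on cells read as UMIs (-0.86, adjusted p = 0.623, and 0.81, adjusted p = 0.829).

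Monocyte/MDP-like cells, where Il6ra is more abundant, held 52.3, 80.3 and 80.9 CPM in NTB mice, 54.2, 55.5 and 50.4 in vehicle mice and 67.1, 77.6 and 81.8 in BRQ mice. NTB 1 overlapped the vehicle mice, and BRQ mice lay above all of these. The log2 fold changes were -0.46 (SE 0.134, adjusted p = 0.050) and 0.39 (SE 0.113, adjusted p = 0.0408). The first call was lost with the pool as a block (-0.41, adjusted p = 0.0609), with library size as the only scaling (-0.48, adjusted p = 0.0586), with DESeq2, thinned cells or other resolutions (-0.65 to -0.38, adjusted p of 0.0644 to 0.260) and without NTB 2, NTB 3, any 1 vehicle mouse, BRQ 1 or BRQ 2 (-0.52 to -0.36, adjusted p of 0.0605 to 0.284). The second was lost without NTB 2, any 1 vehicle mouse, BRQ 2 or BRQ 3 (0.31 to 0.44, adjusted p of 0.0622 to 0.175) and with DESeq2, tag ratios, thinned cells or other resolutions (0.31 to 0.60, adjusted p of 0.0619 to 0.130). Il6ra in HSC/MPP-like cells ranged from 19.8 to 37.4 with overlapping groups.

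Marker levels of other cell types moved beside these results. In Ms4a3-high GMPs the 10 HSC/MPP markers summed to 65.3 to 85.2 CPM in NTB mice, 63.8 to 71.8 in vehicle mice and 121.6 to 145.9 in BRQ mice, and 3 of 5 tested markers were higher in BRQ against vehicle. The 9 monocyte markers summed to 50.1 to 58.0, 43.3 to 60.2 and 88.8 to 136.4, with 2 of 4 tested higher. The 14 neutrophil markers fell from 47540 to 51000 in NTB mice to 34290 to 38050 in vehicle mice, with 8 of 14 lower and 1 higher. In monocyte/MDP-like cells the HSC/MPP markers summed to 219.0 to 249.2 in NTB mice, 183.1 to 206.2 in vehicle mice and 294.2 to 298.3 in BRQ mice. In HSC/MPP-like cells 5 of the 10 HSC/MPP markers were lower in vehicle and in BRQ mice than in NTB mice, from 2139 to 2243 in NTB mice to 1523 to 1546 and 1659 to 1756, while 4 and 5 of 8 GMP markers were higher. The part of these markers in the Kit and Il6ra differences was not tested.

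**Figure D3:**
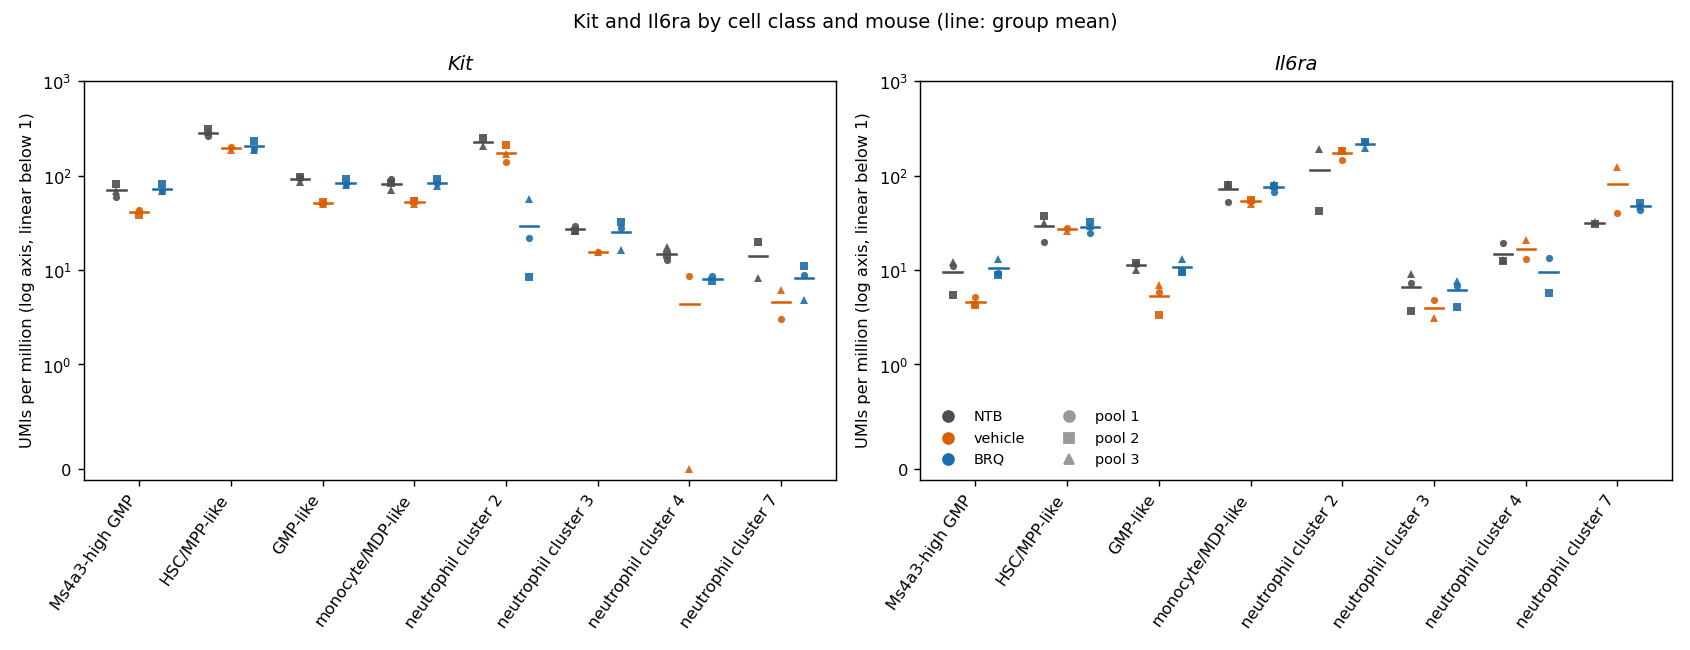
Kit and Il6ra levels in CPM, on a log axis that is linear below 1, in 4 progenitor units and the 4 neutrophil-like clusters; each symbol is 1 mouse (colour for group, shape for pool) and lines are group means. In Ms4a3-high GMPs the vehicle mice lie at 38.5 to 42.7 for Kit and 4.21 to 5.16 for Il6ra, below all NTB and BRQ mice.

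Csf1r (18:61100598-61132149, plus strand, overlapped by Mir6983 and Hmgxb3) was scarce in Ms4a3-high GMPs and higher in BRQ mice. It was at 3.01, 3.04 and 2.42 CPM in NTB mice, 2.43, 3.01 and 1.32 in vehicle mice and 4.29, 4.46 and 6.33 in BRQ mice. BRQ mice lay above all others. The log2 fold change against vehicle was 1.00 (SE 0.277, adjusted p = 0.0176), with ratios within pools of 1.77, 1.48 and 4.80, and the call was lost without vehicle 1 (1.34, adjusted p = 0.0563) or vehicle 3 (0.78, adjusted p = 0.106) and with DESeq2 (1.02, adjusted p = 0.0733). In GMP-like clusters Csf1r rose by 0.75 (SE 0.245, adjusted p = 0.0465), a call lost without NTB 2, any 1 vehicle mouse, BRQ 1 or BRQ 3 (0.55 to 0.96, adjusted p of 0.051 to 0.166), and with DESeq2, tag ratios or resolution 0.5 or 1.2 (0.63 to 0.80, adjusted p of 0.0632 to 0.126). Monocyte/MDP-like cells, which carry far more Csf1r, showed 67.5 to 97.8 across all 9 mice with overlapping groups and no called difference. In Ms4a3-high GMPs the monocyte markers given above rose in the same BRQ mice, and their part in the Csf1r result was not tested.

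Flt3 (5:147330741-147400489, minus strand, with the noncoding gene Gm26597 on the other strand) was tested where it is expressed. In HSC/MPP-like cells it stood at 113.9, 127.6 and 121.0 CPM in NTB mice, 87.0 and 81.4 in vehicle 1 and vehicle 3 and 74.0, 97.5 and 121.4 in BRQ mice. Vehicle lay below NTB without overlap, and the BRQ mice spread over both groups. Vehicle against NTB was -0.48 on the log2 scale (SE 0.155, adjusted p = 0.062), which passed without BRQ 1 (-0.47, adjusted p = 0.0429) or BRQ 3 (-0.48, adjusted p = 0.0353). BRQ against NTB was -0.34 (SE 0.131, adjusted p = 0.131) and was called without BRQ 3 (-0.53, adjusted p = 0.0216) and with mice called from tag ratios (-0.75, adjusted p = 0.00184). Flt3 in monocyte/MDP-like cells ranged from 10.1 to 28.8, and vehicle against NTB was -0.60 (SE 0.259, adjusted p = 0.201).

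Csf3r (4:126024550-126044440, plus strand) changed little in Ms4a3-high GMPs. It was at 99.2, 119.7 and 124.7 CPM in NTB mice, 86.3, 104.7 and 115.2 in vehicle mice and 114.3, 108.0 and 128.7 in BRQ mice. All groups overlapped, and the log2 fold changes were -0.18 (adjusted p = 0.300), 0.03 (adjusted p = 0.903) and -0.15 (adjusted p = 0.422). In GMP-like clusters vehicle was -0.26 against NTB (SE 0.096, adjusted p = 0.0493), a call lost without NTB 2, NTB 3, vehicle 1, vehicle 2 or BRQ 1 (-0.26 to -0.20, adjusted p of 0.0624 to 0.186), and with DESeq2, no filter on low counts, UMI limits, thinned cells or resolution 1.2 (-0.40 to -0.25, adjusted p of 0.0505 to 0.437). BRQ against NTB there was -0.21 (adjusted p = 0.124), and -0.21 with the pool as a block passed (adjusted p = 0.0441), as did -0.26 with tag ratios (adjusted p = 0.0191). HSC/MPP-like cells went the other way in value, with 69.3, 68.2 and 76.1 in NTB mice, 88.1 and 101.8 in vehicle 1 and vehicle 3 and 90.9, 89.4 and 92.4 in BRQ mice. Every tumor-bearing mouse was above every NTB mouse, at 0.38 (SE 0.143, adjusted p = 0.124) for vehicle and 0.31 (SE 0.125, adjusted p = 0.156) for BRQ. The difference from GMP-like cells was itself called, at 0.67 for vehicle against NTB (SE 0.153, adjusted p = 0.0117; 1.17% of all genes) and 0.56 for BRQ against NTB (SE 0.134, adjusted p = 0.00876; 3.08%). The GMP-like make-up differed between groups. Clusters 0 and 1 held 79, 137 and 245 against 111, 270 and 390 cells in NTB mice. These were 762, 75 and 279 against 595, 58 and 209 in vehicle mice and 627, 613 and 777 against 483, 458 and 217 in BRQ mice. Csf3r was at 96.1 ± 16.0 in cluster 0 and 121.4 ± 16.0 in cluster 1. Vehicle against NTB in cluster 1 was called with library-size scaling (-0.32, adjusted p = 0.0369) but not in the main fit. The part of this make-up was not tested.

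Csf3r in monocyte/MDP-like cells was at 60.6, 59.3 and 72.1 in NTB mice, 41.1, 58.5 and 59.4 in vehicle mice and 65.8, 70.0 and 77.6 in BRQ mice. BRQ was higher than vehicle by 0.40 (SE 0.117, adjusted p = 0.0394). That call was lost without NTB 1, NTB 2, vehicle 1 or any 1 BRQ mouse, and without vehicle 1 the value fell to 0.18 (adjusted p = 0.547), the others lying at 0.36 to 0.43 with adjusted p of 0.0570 to 0.0934. It was lost too with DESeq2, tag ratios, thinned cells or other resolutions (0.34 to 0.40, adjusted p of 0.0507 to 0.518). In erythroid/MEP-like cells Csf3r was at 11.8 and 13.4 in NTB 2 and NTB 3, 27.9 and 60.5 in vehicle 1 and vehicle 3 and 42.6, 24.5 and 49.6 in BRQ mice. The log2 fold changes were 1.67 for vehicle against NTB (SE 0.372, adjusted p = 0.0211) and 1.57 for BRQ against NTB (SE 0.300, adjusted p = 0.0152). The first call was lost without any 1 of the 4 mice compared (1.23 to 2.27, adjusted p of 0.0510 to 0.313) and the second without NTB 3 (1.63, adjusted p = 0.564) or BRQ 1 (1.43, adjusted p = 0.173) and with DESeq2 (1.57, adjusted p = 0.161). Neutrophil markers in the erythroid-like sums were at 6961 to 13960 CPM in NTB mice, 19950 to 25750 in vehicle mice and 8491 to 12200 in BRQ mice, with 5 of 14 higher in vehicle against NTB, and 7 of 8 GMP markers were higher as well. Their part in the Csf3r result was not tested.

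Of the chains that bind GM-CSF and interleukin-3, Csf2ra (19:61223957-61228429, minus strand) was lower in tumor-bearing mice in value. In Ms4a3-high GMPs it stood at 92.2, 106.3 and 103.4 CPM in NTB mice, 80.6, 90.3 and 77.7 in vehicle mice and 77.3, 85.5 and 78.5 in BRQ mice. BRQ and vehicle overlapped, and both were below NTB. On the log2 scale BRQ against NTB was -0.50 (SE 0.099, adjusted p = 0.00366), lost with cells thinned to 4000 UMIs (-0.52, adjusted p = 0.0583). Vehicle against NTB was -0.28 (adjusted p = 0.0783) and BRQ against vehicle was -0.21 (adjusted p = 0.115), and with the pool as a block both passed (-0.27, adjusted p = 0.0339, and -0.23, adjusted p = 0.0193). Vehicle against NTB also passed without BRQ 3 (-0.30, adjusted p = 0.0344) and with tag ratios (-0.31, adjusted p = 0.0433), and both with the Ms4a3 limit at 2.5 (-0.35, adjusted p = 0.0103, and -0.29, adjusted p = 0.0312). In GMP-like clusters Csf2ra was at 95.5, 113.9 and 108.2, at 81.2, 95.01 and 77.3 and at 71.4, 82.8 and 72.7 in NTB, vehicle and BRQ mice. BRQ against NTB was -0.63 (SE 0.097, adjusted p = 0.000349), lost with the limits on cells read as UMIs (-0.61, adjusted p = 0.117). The steps in between were -0.29 (SE 0.101, adjusted p = 0.0395) and -0.34 (SE 0.095, adjusted p = 0.0211). The first was lost without NTB 2, NTB 3, vehicle 1, vehicle 3 or BRQ 1 (-0.33 to -0.20, adjusted p of 0.0519 to 0.200), and with DESeq2, at resolution 1.2 or with the UMI limits (-0.41 to -0.27, adjusted p of 0.0508 to 0.472). The second was lost without vehicle 1, vehicle 2, BRQ 1 or BRQ 3 (-0.33 to -0.24, adjusted p of 0.0661 to 0.0920) and when counts were scaled by library size alone (-0.14, adjusted p = 0.316), with tag ratios, thinned cells or UMI limits (-0.30 to -0.21, adjusted p of 0.0967 to 0.898). Csf2ra stood at 72.5 ± 8.40 CPM in cluster 0 and 110.7 ± 17.6 in cluster 1 (n = 9 in each), whose cell numbers by group are given above. The part of that make-up in the GMP-like differences was not tested. In monocyte/MDP-like cells, at 65.9 to 79.7, Csf2ra was -0.21 in BRQ against NTB (adjusted p = 0.396; -0.68 with cells thinned to 4000 UMIs, adjusted p = 0.0484), and the difference from GMP-like cells, 0.45, was called (SE 0.112, adjusted p = 0.0127; 2.44% of all genes). Neutrophil-like cells held 118.6 to 141.7 in all 9 mice.

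Il3ra (14:14346275-14356011, plus strand, overlapped by Gm48860) was called in monocyte/MDP-like cells. It was at 23.4, 26.0 and 22.0 CPM in NTB mice, 20.9, 22.2 and 19.96 in vehicle mice and 32.0, 34.9 and 30.7 in BRQ mice. BRQ mice lay above all others, by 0.52 on the log2 scale against vehicle (SE 0.137, adjusted p = 0.0236). The call was lost without vehicle 1, vehicle 3, BRQ 1 or BRQ 2 (0.45 to 0.56, adjusted p of 0.0636 to 0.119) and with DESeq2, tag ratios or thinned cells (0.27 to 0.52, adjusted p of 0.0842 to 0.730). BRQ against NTB was 0.34 (adjusted p = 0.318). In Ms4a3-high GMPs Il3ra was at 9.02, 12.2 and 13.1 in NTB mice, 8.71, 11.4 and 9.43 in vehicle mice and 12.5, 14.4 and 11.8 in BRQ mice, with BRQ above vehicle. The difference of 0.28 was not called there (adjusted p = 0.274), nor was 0.26 in GMP-like clusters (adjusted p = 0.188). With library size as the only scaling both were called (0.47, adjusted p = 0.0439, and 0.47, adjusted p = 0.0182), and the ratios of BRQ to vehicle within pools were 1.43, 1.26 and 1.26, and 1.45, 1.30 and 1.31. Vehicle against NTB in GMP-like clusters (adjusted p = 0.185) was called with tag ratios (-0.37, adjusted p = 0.0446).

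Csf2rb (15:78325752-78353847, plus strand) and Csf2rb2 (15:78282507-78305721, minus strand) are neighbours and close copies. Their longest coding transcripts, of 4900 and 4740 bases, were 91.3% identical over 4670 aligned bases and 86.2% over the last 500, where 3′ tags fall. Of the 90-base windows of either transcript, 394 (8.20% and 8.50%) were shared without a mismatch, but 0 of 411 in the last 500 bases. Reads from shared stretches can be split between the copies or dropped, so the level of each carries that uncertainty. The promoter of Csf2rb2 (RefSeq, chr15:78305722-78305971, minus strand) is shown because it held 1 match to TTCNNNGAA, the spacing that STAT5 binds, on top of 1 to TTCCTC. The first is found in 7.18% of the 27025 promoters and in none of the other 7 members whose promoters were in the table.
Csf2rb2: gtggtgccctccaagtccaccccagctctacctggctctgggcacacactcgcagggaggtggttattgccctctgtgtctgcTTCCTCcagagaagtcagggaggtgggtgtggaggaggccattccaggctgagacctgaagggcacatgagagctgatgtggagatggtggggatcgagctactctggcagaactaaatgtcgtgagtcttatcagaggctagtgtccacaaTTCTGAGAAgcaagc

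Csf2rb was higher in tumor-bearing mice across the progenitors. In Ms4a3-high GMPs it stood at 24.0, 41.3 and 46.9 CPM in NTB mice, 63.7, 77.6 and 89.0 in vehicle mice and 61.2, 56.2 and 131.0 in BRQ mice. Every tumor-bearing mouse was above every NTB mouse, and BRQ 3 was above all others. The log2 fold change was 0.97 for vehicle against NTB (SE 0.262, adjusted p = 0.0183), 0.90 for BRQ against NTB (SE 0.254, adjusted p = 0.037) and -0.07 for BRQ against vehicle (SE 0.191, adjusted p = 0.876). The first call was lost without any 1 NTB mouse or vehicle 3 (0.83 to 1.12, adjusted p of 0.0569 to 0.0780), with DESeq2 (1.03, adjusted p = 0.0552) and with thinned cells (0.74, adjusted p = 0.150). The second was lost without any 1 NTB mouse or vehicle 2 (0.76 to 1.05, adjusted p of 0.0587 to 0.147) without BRQ 3 (0.46, adjusted p = 0.0773), and with DESeq2, tag ratios or only the cells inside GMP-like clusters (0.76 to 0.94, adjusted p of 0.0624 to 0.140). In every pool the ratio to NTB was above 1, at 2.65, 1.88 and 1.90 for vehicle and at 2.55, 1.36 and 2.79 for BRQ.

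BRQ 3 also decided how Csf2rb compared between BRQ and vehicle. Without that mouse Csf2rb was lower in BRQ mice by 0.48 on the log2 scale in Ms4a3-high GMPs (-0.48, SE 0.111, adjusted p = 0.00268), by 0.51 in GMP-like clusters (-0.51, SE 0.107, adjusted p = 0.00187) and by 0.64 in neutrophil-like cluster 3 (-0.64, SE 0.150, adjusted p = 0.0149). With it no such difference was called. HSC/MPP-like cells gave -0.54 without that mouse (adjusted p = 0.350). The ratios of BRQ to vehicle within pools were 0.961, 0.723 and 1.47 in Ms4a3-high GMPs, so that pool 3 went against the others.

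In HSC/MPP-like cells Csf2rb was at 23.1, 38.5 and 37.7 CPM in NTB mice, 91.1 and 96.0 in vehicle 1 and vehicle 3 and 57.5, 74.3 and 127.8 in BRQ mice. Tumor-bearing mice were again above all NTB mice. The log2 fold changes were 1.43 for vehicle (SE 0.234, adjusted p = 0.000112) and 1.29 for BRQ (SE 0.211, adjusted p = 0.000139), and both calls were kept in every fit without 1 mouse and lost with the limits on cells read as UMIs (1.35, adjusted p = 0.0669, and 1.03, adjusted p = 0.217). In GMP-like clusters Csf2rb was at 24.8, 38.0 and 33.3 in NTB mice, 60.1, 63.3 and 81.0 in vehicle mice and 56.2, 49.6 and 120.2 in BRQ mice. It rose by 1.12 (SE 0.240, adjusted p = 0.00201) and 1.05 (SE 0.231, adjusted p = 0.00491) against NTB, and the latter was 0.60 without BRQ 3 (adjusted p = 0.00273). With the limits on cells read as UMIs the folds were 1.204 and 1.06, without a call (adjusted p = 0.102 and 0.0747). In monocyte/MDP-like cells the values were 37.2, 49.2 and 64.6, then 75.9, 79.7 and 95.5, then 74.0, 69.3 and 123.7 in NTB, vehicle and BRQ mice. The rises of 0.67 (SE 0.191, adjusted p = 0.0454) and 0.66 (SE 0.179, adjusted p = 0.0376) were less stable. The first was lost without any 1 NTB or vehicle mouse (0.59 to 0.87, adjusted p of 0.0672 to 0.200), with library size as the only scaling (0.66, adjusted p = 0.0618) and with tag ratios or thinned cells (0.55 to 0.57, adjusted p of 0.0562 to 0.308). The second was lost without NTB 1, NTB 2 or vehicle 2 (0.57 to 0.66, adjusted p of 0.0616 to 0.252) or BRQ 3 (0.38, adjusted p = 0.207) and with tag ratios or thinned cells (0.50 to 0.56, adjusted p of 0.0566 to 0.347).

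In erythroid/MEP-like cells Csf2rb was at 4.70 and 11.6 in NTB 2 and NTB 3, 26.9 and 37.8 in vehicle 1 and vehicle 3 and 19.3, 14.7 and 45.1 in BRQ mice. Tumor-bearing mice lay above NTB mice, at 1.75 for vehicle (SE 0.454, adjusted p = 0.0663) and 1.32 for BRQ (SE 0.383, adjusted p = 0.139). With the pool as a block both passed (2.01, adjusted p = 0.0223, and 1.73, adjusted p = 0.0144). Vehicle against NTB also passed without BRQ 2 (1.74, adjusted p = 0.0326) or BRQ 3 (1.75, adjusted p = 0.00615), and BRQ against NTB without BRQ 2 (1.55, adjusted p = 0.033). Both also passed without a filter on low counts (1.71, adjusted p = 0.00055, and 1.29, adjusted p = 0.00484). The neutrophil markers given above for these sums were higher than in NTB mice in both vehicle mice, while in BRQ mice they lay within the NTB range. Their part in the Csf2rb difference was not tested.

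Csf2rb2, at a lower level, rose in HSC/MPP-like cells. It was at 0, 5.50 and 3.60 CPM in NTB mice, 15.4 and 11.6 in vehicle 1 and vehicle 3 and 6.92, 10.4 and 15.8 in BRQ mice. Tumor-bearing mice were above all NTB mice, by 2.07 (SE 0.492, adjusted p = 0.00788) for vehicle and 1.64 (SE 0.468, adjusted p = 0.0307) for BRQ. DESeq2 called 2 members in HSC/MPP-like cells in each of these comparisons, where edgeR called 3 (Kit, Csf2rb and Csf2rb2). The first edgeR call of Csf2rb2 was lost without NTB 3 (2.12, adjusted p = 0.0699) or vehicle 1 (1.75, adjusted p = 0.404). The second was lost without NTB 1, NTB 3, BRQ 2 or BRQ 3 (1.27 to 1.69, adjusted p of 0.0513 to 0.180) and at clustering resolution 0.5 (1.51, adjusted p = 0.0552) or 1.2 (1.46, adjusted p = 0.200). In GMP-like clusters the values were 2.92, 2.11 and 1.93, then 2.48, 3.38 and 5.05, then 4.24, 3.84 and 8.84 in NTB, vehicle and BRQ mice. BRQ against NTB was 1.26 (SE 0.386, adjusted p = 0.0333), lost without NTB 2 (1.26, adjusted p = 0.111), NTB 3 (1.07, adjusted p = 0.212) or BRQ 3 (0.83, adjusted p = 0.118) and with cells thinned (1.22, adjusted p = 0.176). In Ms4a3-high GMPs BRQ against NTB was 1.44 (SE 0.563, adjusted p = 0.134), and 1.53 with the pool as a block passed (adjusted p = 0.0121), as did 1.48 without a filter on low counts (adjusted p = 0.0163) and 1.399 with the Ms4a3 limit at 2.5 (adjusted p = 0.0162). Csf2rb2 there was at 2.00, 1.82 and 2.42 in NTB mice, 2.99, 1.81 and 6.22 in vehicle mice and 4.195, 4.58 and 10.6 in BRQ mice.

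**Figure D4:**
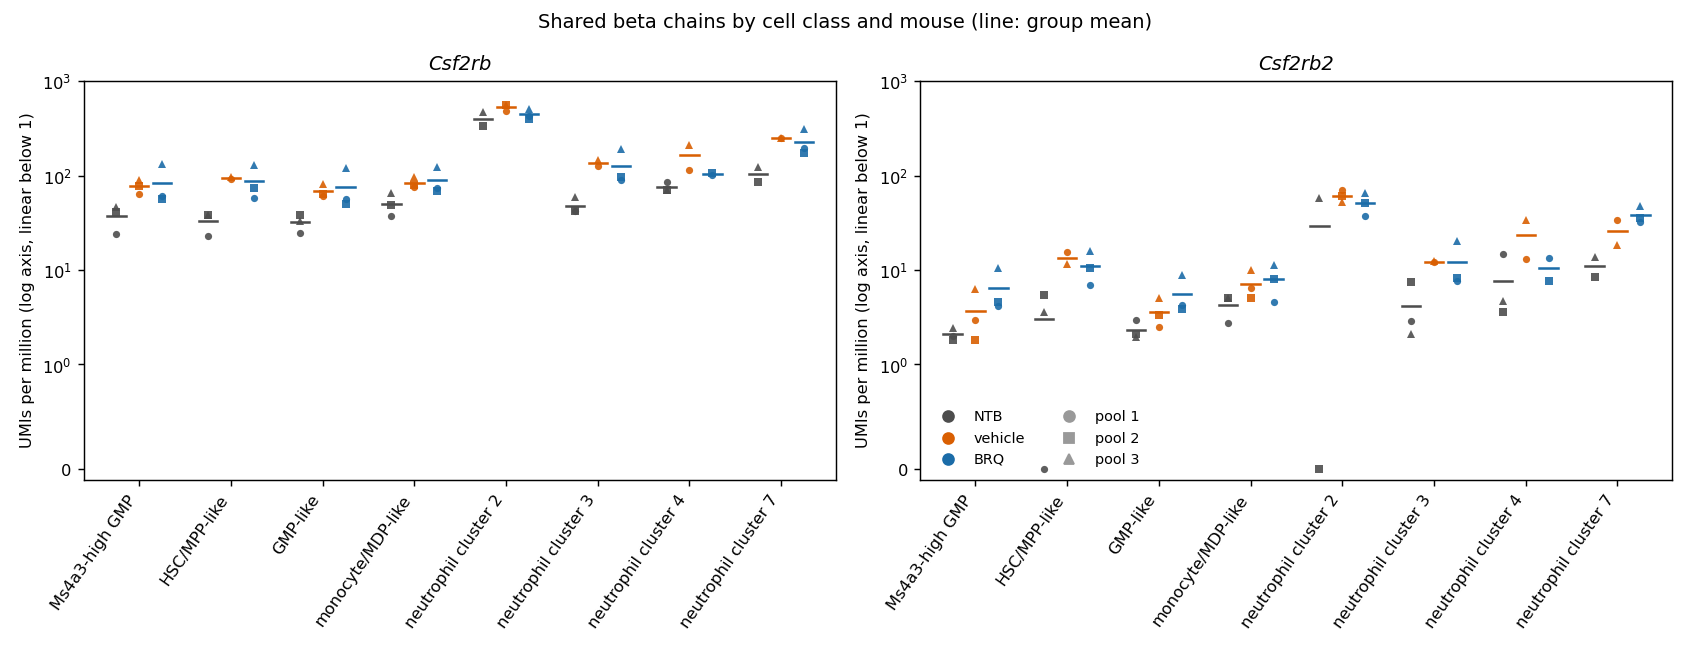
Csf2rb and Csf2rb2 levels in CPM, on a log axis that is linear below 1, in 4 progenitor units and the 4 neutrophil-like clusters; each symbol is 1 mouse (colour for group, shape for pool) and lines are group means. The triangle of BRQ 3 is the highest BRQ value of Csf2rb in each unit where that mouse is shown, as 131.0 against 56.2 and 61.2 in Ms4a3-high GMPs.

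Il6st (13:112464070-112510086, plus strand) had no called difference in the 6 units by edgeR as set out above, though some other settings gave one. In monocyte/MDP-like cells it was at 111.6, 178.0 and 211.4 CPM in NTB mice, 140.4, 101.9 and 147.3 in vehicle mice and 151.1, 171.2 and 169.7 in BRQ mice. The groups overlapped because NTB 1 was low. Vehicle against NTB was -0.36 (SE 0.136, adjusted p = 0.137), and -0.50 without NTB 1 (adjusted p = 0.0292). In GMP-like clusters Il6st was at 2.23 to 7.98, BRQ against NTB was 0.88 (SE 0.321, adjusted p = 0.0684), and 0.93 with the pool as a block passed (adjusted p = 0.0248), as did 1.02 without BRQ 1 (adjusted p = 0.0487) and 1.06 without BRQ 2 (adjusted p = 0.0251). It passed too with library size as the only scaling (1.02, adjusted p = 0.0299) and without a filter on low counts (adjusted p = 0.0191). In Ms4a3-high GMPs BRQ against NTB had an adjusted p of 0.591, and with the Ms4a3 limit at 2.5 it was called (1.501, adjusted p = 0.00604). The difference between the classes was called, with monocyte/MDP-like minus GMP-like cells at -1.16 (SE 0.294, adjusted p = 0.0151).

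Neutrophil-like cells as a class held 6 called members in vehicle against NTB, all higher: Csf1r by 3.39, Csf3r by 2.67, Il6ra by 2.27, Csf2rb2 by 2.19, Csf2rb by 1.96 and Kit by 1.34 on the log2 scale, with adjusted p of 0.00368 to 0.0314. The setting with cells thinned to 4000 UMIs left out every shallower cell, and the median of cluster 2, described below, was 1548.5 UMIs. Under that setting Kit turned to -0.14 (adjusted p = 0.921) and Il6ra lost its call (1.33, adjusted p = 0.148). Csf1r could not be tested, and the calls of Csf3r, Csf2rb and Csf2rb2 held. Csf3r, for instance, stood at 117.6, 135.8 and 140.0 CPM in NTB mice, 341.4, 1064 and 1251 in vehicle mice and 324.0, 292.7 and 671.1 in BRQ mice. The make-up of the class differed in the same direction. Cluster 2, led by Wfdc17, Il1b, Stfa2l1 and Cxcr2 and shallow at a median of 1548.5 UMIs, held 4.86%, 6.42% and 3.38% of the neutrophil-like cells of NTB mice, 44.4%, 75.2% and 80.5% in vehicle mice and 35.0%, 28.0% and 64.3% in BRQ mice. Cluster 4 (Chil3, Camp, Ltf), which held 41.0%, 44.4% and 48.8% in NTB mice, made up 4.02% to 8.89% in vehicle mice and 2.76% to 16.3% in BRQ mice. Values are therefore given within clusters, a division chosen after the data were seen. Mice missing from a cluster had fewer than 20 cells there.

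Within clusters Csf3r did not follow the class. In cluster 2 it was at 2711 and 1862 CPM in NTB 2 and NTB 3, 2403, 2572 and 2722 in vehicle mice and 2355, 2194 and 1872 in BRQ mice. In cluster 3 (Fcnb, Camp, Ngp) it was at 117.1, 103.5 and 129.2 in NTB mice, 103.3 and 121.1 in vehicle 1 and vehicle 3 and 133.4, 133.3 and 131.4 in BRQ mice. The level thus separated the clusters, and vehicle against NTB was 0.21 in cluster 2, -0.07 in cluster 3, 0.03 in cluster 4 and 0.40 in cluster 7, none called. Csf1r was at 166.8 and 72.7 in NTB 2 and NTB 3, 147.5, 98.9 and 145.0 in vehicle mice and 98.8, 105.7 and 108.2 in BRQ mice in cluster 2, with overlap. Il6ra in cluster 2 was at 41.7 and 189.1 in NTB 2 and NTB 3, 147.5 to 188.2 in vehicle mice and 196.7 to 228.4 in BRQ mice, with no call.

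Set against GMP-like cells, the difference itself was called for all 6 in vehicle against NTB, beside 6.59% of all genes, and for Csf3r and Il6ra in BRQ against NTB, beside 2.06%. Of these 6 class calls, those of Csf3r and Csf2rb were kept without any 1 mouse. Csf1r was lost without NTB 3 (3.17, adjusted p = 0.0666), as was Csf2rb2 (1.95, adjusted p = 0.0725). Il6ra was lost without NTB 2, NTB 3, vehicle 2 or vehicle 3 (1.60 to 2.41, adjusted p of 0.0544 to 0.119) and Kit without any 1 NTB mouse, vehicle 2 or vehicle 3 (0.92 to 1.4, adjusted p of 0.0746 to 0.189) and with mice called from tag ratios (1.19, adjusted p = 0.0625). In BRQ against vehicle, Kit (-1.42), Csf3r (-1.15), Csf1r (-1.13) and Il6ra (-0.64) had no call. All 4 were lower without vehicle 1 (-1.88, -1.52, -1.70 and -1.18, adjusted p of 0.000124 to 0.0363), and Kit also with the pool as a block (-1.34, adjusted p = 0.0477), with DESeq2 (-1.51, adjusted p = 0.0101) and with the UMI limits (-2.21, adjusted p = 0.00333). Without a filter on low counts Kit, Csf1r and Csf3r were called (-1.38, -1.10 and -1.11, adjusted p of 1.87e-07 to 0.00112). In BRQ against NTB, Csf2rb (1.35, adjusted p = 0.0383) and Csf2rb2 (1.82, adjusted p = 0.0312) were higher, calls lost without any 1 NTB mouse, vehicle 2 or BRQ 3 (0.90 to 1.4, adjusted p of 0.0597 to 0.198, and 1.32 to 1.95, adjusted p of 0.0565 to 0.235). Csf1r (2.26), Csf3r (1.53) and Il6ra (1.63) had adjusted p of 0.0578 to 0.0866 there and passed with the pool as a block (2.56, 1.49 and 1.81, adjusted p of 0.000634 to 0.00293). They also passed without vehicle 1 (2.25, 1.52 and 1.60, adjusted p of 0.00118 to 0.00549), Csf1r and Csf3r without vehicle 3 (adjusted p = 0.0268 and 0.035) and Csf3r without BRQ 2 (adjusted p = 0.047). With the UMI limits, at resolution 0.5 or without a filter on low counts all 3 passed (1.52 to 2.63, adjusted p of at most 0.0142), as did Csf1r and Il6ra with DESeq2 (2.29 and 1.66, adjusted p = 0.00158 and 0.00734) and Csf1r and Csf3r with library size as the only scaling (2.42 and 1.70, adjusted p = 0.0498 and 0.0418).

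Within clusters, the beta chains were called in some and not in others. Csf2rb in cluster 3 was at 41.9, 42.2 and 59.8 CPM in NTB mice, 124.9 and 145.9 in vehicle 1 and vehicle 3 and 89.4, 95.5 and 189.9 in BRQ mice. Tumor-bearing mice lay above NTB mice by 1.43 (SE 0.202, adjusted p = 2.7e-05) for vehicle and 1.09 (SE 0.184, adjusted p = 0.000268) for BRQ, calls held in all 15 alternative settings, beside 8.61% and 7.79% of all genes called. In cluster 7 (Ifitm6, Ly6g, Mmp8) it was at 84.4 and 123.2 in NTB 2 and NTB 3, 251.1 and 249.8 in vehicle 1 and vehicle 3 and 197.5, 172.8 and 308.0 in BRQ mice. The differences were 1.36 (SE 0.237, adjusted p = 0.000275; 2.36% of all genes) and 0.96 (SE 0.202, adjusted p = 0.00183; 5.35%), the second lost without NTB 2 (0.82, adjusted p = 0.0777), and both lost with cells thinned to 4000 UMIs (1.19, adjusted p = 0.0519, and 0.77, adjusted p = 0.189). In cluster 4 vehicle against NTB was 1.10 (SE 0.222, adjusted p = 0.00462; 0.536%), lost with the pool as a block (1.13, adjusted p = 0.0587) and without NTB 2, NTB 3 or vehicle 3 (0.82 to 1.12, adjusted p of 0.0510 to 0.192), and BRQ against NTB was 0.55 without a call (adjusted p = 0.109). In cluster 2, where it was highest at 333.7 to 555.1, vehicle against NTB was 0.40 (adjusted p = 0.584) and BRQ against NTB 0.18 (adjusted p = 0.938). Csf2rb2 had no call in cluster 2 (0.85, adjusted p = 0.762, and 0.70, adjusted p = 0.921) and too few counts to test in cluster 4. Csf2rb2 in cluster 3 rose by 1.73 (SE 0.451, adjusted p = 0.0152) in vehicle and by 1.38 (SE 0.430, adjusted p = 0.0441) in BRQ mice against NTB. The first was lost without NTB 3 (1.00, adjusted p = 0.306) or vehicle 1 (1.71, adjusted p = 0.396). The second was lost without NTB 1, NTB 3, vehicle 1 or BRQ 3 (0.66 to 1.38, adjusted p of 0.0530 to 0.537) and with tag ratios (1.33, adjusted p = 0.0721). In cluster 7 Csf2rb2 was at 8.44 and 13.8 in NTB 2 and NTB 3, 33.7 and 18.3 in vehicle 1 and vehicle 3 and 32.0, 35.4 and 47.8 in BRQ mice. Vehicle against NTB was 1.37 there, not called (adjusted p = 0.252). The difference of BRQ from NTB was 1.55 (SE 0.425, adjusted p = 0.0221), lost without NTB 2, NTB 3 or BRQ 3 (1.4 to 1.96, adjusted p of 0.0831 to 0.214), with DESeq2 (1.63, adjusted p = 0.327) and with the limits on cells read as UMIs (1.26, adjusted p = 0.171).

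Csf2ra in cluster 3 was at 131.5, 146.9 and 136.4 CPM in NTB mice, 115.8 and 111.8 in vehicle 1 and vehicle 3 and 111.4, 118.5 and 107.7 in BRQ mice, so that NTB mice lay above the rest. The difference of BRQ from NTB was -0.45 (SE 0.119, adjusted p = 0.0172). That call was lost without NTB 2, BRQ 1 or BRQ 3 (-0.46 to -0.39, adjusted p of 0.0603 to 0.136), with DESeq2 (-0.45, adjusted p = 0.0621), with library size as the only scaling (-0.30, adjusted p = 0.124) and with cells thinned to 4000 UMIs (-0.44, adjusted p = 0.134). Il6ra in cluster 7 was at 31.0 and 31.8 in NTB 2 and NTB 3, 39.8 and 121.8 in vehicle 1 and vehicle 3 and 42.7, 50.9 and 47.8 in BRQ mice. Vehicle against NTB was 1.27 (adjusted p = 0.0854), which passed with the pool as a block (1.65, adjusted p = 0.00787), without vehicle 1 (2.05, adjusted p = 0.0106) and with the limits on cells read as UMIs (1.68, adjusted p = 0.0139).

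Kit differed between BRQ and vehicle in cluster 2, in the direction opposite to GMPs. It was at 250.3 and 203.6 CPM in NTB 2 and NTB 3, 138.7, 208.8 and 167.3 in vehicle mice and 21.6, 8.45 and 56.8 in BRQ mice. Every BRQ mouse was below every other mouse. Of all genes, 18.6% had BRQ and vehicle mice apart in either direction, and 30% had BRQ and NTB mice apart. The counts behind these levels were small, with 12 and 14 Kit UMIs in the NTB mice, 63, 38 and 120 in vehicle mice and 7, 2 and 43 in BRQ mice. Kit UMIs were found in 8 of 33 and 5 of 38 NTB cells, in 15%, 20.8% and 17.5% of vehicle cells and in 2.83%, 1.55% and 9.20% of BRQ cells, at median depths of 1205 to 1602.5, 1409 to 1511 and 1353.5 to 2141.5 UMIs. Macrophage-like cells, at a median of 2732 UMIs, had 9.0%. Since the depths differ, these shares give no order for the BRQ mice, while vehicle mice were above the macrophage-like share at less depth. By level, macrophage-like sums ran from 8.90 to 44.0 CPM over 3 mice and from 33.8 to 57.2 by pool over all kept barcodes. The levels in cluster 2 were 8.45 to 56.8 in BRQ mice and 138.7 to 208.8 in vehicle mice. The 3 macrophage-like sums were those of NTB 3, BRQ 1 and BRQ 3, since the vehicle mice had only 18, 5 and 4 such cells. The part of free RNA in the Kit levels of cluster 2 was not tested. A single cell held up to 6 Kit UMIs.

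The log2 fold change of Kit in cluster 2 was -2.11 for BRQ against vehicle (SE 0.278, adjusted p = 1.84e-05), where 1.90% of all genes were called, and it was called in all 15 alternative settings (-3.32 to -1.85). Without BRQ 3, the nearest to vehicle, it was -3.32 (SE 0.363, adjusted p = 4.5e-08). The ratios within pools were 0.156, 0.0405 and 0.339. BRQ against NTB was -2.51 (SE 0.474, adjusted p = 0.0136; 0.170% of all genes). That call was lost without NTB 2 (-2.34, adjusted p = 0.235), NTB 3 (-2.56, adjusted p = 0.275), BRQ 1 (-2.29, adjusted p = 0.0569) or BRQ 2 (-2.24, adjusted p = 0.0569), and with tag ratios (-1.24, adjusted p = 0.667). Vehicle against NTB was -0.40 (SE 0.390, adjusted p = 0.798). Levels in cluster 2 of HSC/MPP markers were 15.4 to 87.9, with Mecom and Ly6a at 0, those of GMP markers 1627 to 2885 and those of basophil and mast cell markers 5.50 to 21.6, with Fcer1a, Tpsb2 and Cma1 at 0. Of 14 neutrophil markers 4 were higher in BRQ than in vehicle mice. The part of these markers in the Kit difference was not tested. In cluster 3 Kit was at 15.5 to 32.2 in all mice, with vehicle against NTB at -0.72 (SE 0.256, adjusted p = 0.0788), and -0.75 without BRQ 3 (adjusted p = 0.0279) and -1.02 with tag ratios (adjusted p = 0.0042) were called.

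**Figure D5:**
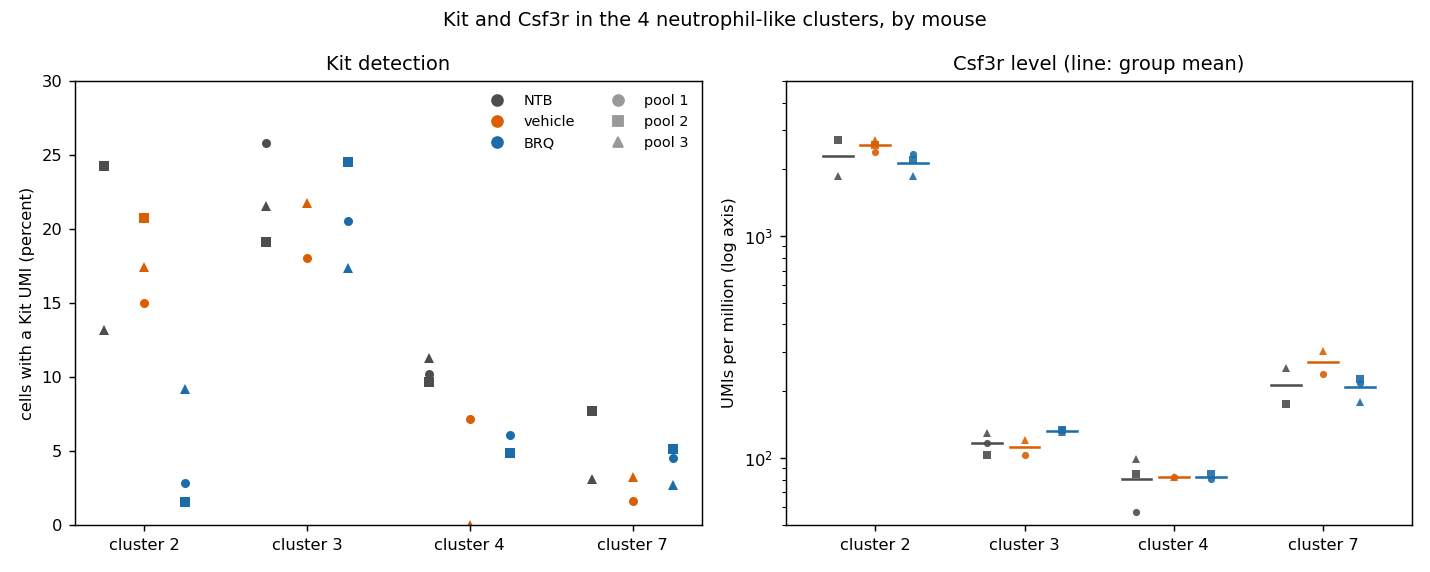
Left, percent of cells with a Kit UMI, and right, Csf3r level in CPM on a log axis with group means as lines, in the 4 neutrophil-like clusters; each symbol is 1 mouse (colour for group, shape for pool). In cluster 2 the BRQ mice lie at 1.55% to 9.20% for Kit against 15% to 20.8% in vehicle mice, while Csf3r lies at 1862 to 2722 in all groups.

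A list of 87 other genes of the same pathways (ligands, further cytokine receptors, kinases and adaptors, STATs, feedback inhibitors, targets, and proteases and transcription factors of the receptors) was read beside the members. In Ms4a3-high GMPs 64 could be tested. In vehicle against NTB 2 were higher and 4 lower (9.38%, against 11.3% of all genes), in BRQ against vehicle 5 were higher and 0 lower (7.81%, against 13.4%) and in BRQ against NTB 2 were higher and 2 lower (6.25%, against 6.01%), shares close to or below those of all genes. The median log2 fold changes were -0.08, 0.08 and 0.03, beside -0.014, 0.001 and -0.003 over all genes. With tumor the kinase gene Mapk3 fell by 0.45 (SE 0.106, adjusted p = 0.0075), Dusp6, a phosphatase that restrains ERK kinases, fell by 1.89 (SE 0.469, adjusted p = 0.0107) and the transcription factor gene Runx1 fell by 0.42 (SE 0.105, adjusted p = 0.0117). Pim1, a STAT-induced kinase gene, rose by 1.23 (SE 0.292, adjusted p = 0.00775). With BRQ against vehicle Myb, a transcription factor of progenitors, rose by 0.52 (SE 0.081, adjusted p = 0.000146). Il2rg, the common gamma chain, rose by 0.82 (adjusted p = 0.00161), Inpp5d, which encodes the phosphatase SHIP, by 0.40 (adjusted p = 0.00792) and Stat3 by 0.28 (adjusted p = 0.0346). Against NTB, BRQ mice were higher in Myb (0.40, adjusted p = 0.00505) and Pim1 (1.17, adjusted p = 0.0153) and lower in Mapk3 (-0.37, adjusted p = 0.0298) and Dusp6 (-1.50, adjusted p = 0.0365).

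In HSC/MPP-like cells 71 of the 87 were tested, with 6 higher and 4 lower in vehicle against NTB and 4 higher and 6 lower in BRQ against NTB (14.1% in each, against 5.10% of all genes). The HSC/MPP and GMP markers given above moved in the same sums, 5 of 10 lower in both comparisons and 4 and 5 of 8 higher, and their part in these counts was not tested. In BRQ against vehicle edgeR called 0, with 3 at an unadjusted p under 0.05 (DESeq2 was not run on this list). Feedback inhibitors and targets held 8 of the 10 vehicle calls. The following were named after their values were seen. Socs3, an inhibitor that STAT3 induces, was higher by 2.82 in vehicle and 2.37 in BRQ mice, Bcl3 by 2.18 and 1.89, Id1 by 2.14 and 2.26 and Pim1 by 0.85 and 0.68. Dusp6 was -1.95 and -1.77, Spred1 -0.86 and -0.68, Inpp5d -0.51 and -0.44 and Ccnd2 -0.83 and -0.70, with adjusted p of at most 0.0323 for all 8 in both comparisons. Flt3l, the Flt3 ligand, was lower in BRQ against NTB (-1.42, adjusted p = 0.0477). In neutrophil-like cells 19 of 66 were higher and 0 lower in vehicle against NTB (28.8%, against 9.89%), 5 were higher in BRQ against NTB (Socs3, Pim1, Mcl1, Bcl3 and Ccnd2; 7.58%, against 3.27%) and 0 in BRQ against vehicle (12 at an unadjusted p under 0.05), with the change in cluster shares given above moving beside them. GMP-like clusters had 4 higher and 7 lower of 67 (16.4%, against 24.7%), 5 higher and 2 lower (10.4%, against 13.8%) and 3 higher and 7 lower (14.9%, against 14.7%) in the 3 comparisons. Of 61 tested in monocyte/MDP-like cells 1 was higher and 4 lower, 3 higher and 0 lower, and 3 higher and 2 lower (8.20%, 4.92% and 8.20%, against 3.77%, 5.72% and 3.12%). Erythroid/MEP-like cells had 0 of 56 in every comparison by edgeR, with 12, 5 and 11 at an unadjusted p under 0.05.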

How the data were processed

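Bone marrow cells enriched for c-Kit were profiled by droplet capture with 3′ chemistry in 3 pools, each with 1 hashtagged mouse per group. The authors deposited UMI counts per gene and cell barcode, with antibody tags as further features, made with Cell Ranger 6.0.0 on build mm10 per the submitters' processing notes. The annotation release was not given in the sources used here. From these deposited counts, barcodes with 500 to 7500 genes and at most 15% mitochondrial UMIs were kept (11175, 9593 and 11994). The study gives these limits as transcripts, and since medians were near the upper one they were read here as detected genes, with UMIs as an alternative. Scrublet's doublet calls (4.47%, 3.58% and 5.38%) were removed only as an alternative. Tags were called with Seurat 5.3.0 (HTODemux, quantile 0.99), which gave 52.3%, 41.6% and 49.3% singlets, and between-mouse doublets were removed. Cells were clustered with scanpy 1.11.5 and leidenalg 0.10.2 (2000 variable genes without the receptor genes, 5 of which were variable, 30 components, 20 neighbours, resolution 0.8). A doublet of 2 cells from 1 mouse could remain. Counts were summed per mouse and unit and tested with edgeR 4.0.16 (quasi-likelihood, TMM scaling, all 3 groups in 1 fit, filter on low counts, adjusted p under 0.05), with DESeq2 1.42.0 (R 4.3.3) as an alternative. Adjusted p-values cover all genes tested in a fit. Differences between classes came from joint fits, each of the GMP-like class with 1 other class (HSC/MPP-like, neutrophil-like or monocyte/MDP-like). Each fit had every mouse as a block and a term for the other class in each group.

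The members, gene lists and tests were chosen with earlier results of these data known. All 10 receptor genes are named, with the 3 most similar genes for each and, in Ms4a3-high GMPs, the 4 listed pathway genes with the smallest adjusted p per comparison. Other names were chosen after their values were seen, as stated beside them. Positions are from GENCODE M21 (GRCm38), promoters from RefSeq, whose table held 8 of the 10 members. With 3 mice against 3, an exact permutation test of 1 value could not go below p = 0.1. Mice of a pool shared a capture, per the labels. Their deviations from the group means correlated at a median of 0.088 in Ms4a3-high GMPs (lowest -0.019, 9 pairs), against -0.046 for mice of different pools (18 pairs), and the fit with the pool as a block is given where it changed a call. On simulated data with 200 genes changed 2-fold in vehicle against NTB, 91.0%, 69.5%, 97.0%, 95.0%, 87.5% and 53.0% were recovered in Ms4a3-high GMPs, HSC/MPP-like, GMP-like, neutrophil-like, monocyte/MDP-like and erythroid/MEP-like sums. The changed genes were drawn only from those above a set mean level, which Csf1r, at 3.52 CPM in GMP-like cells, does not reach. The simulated spread was the same in every unit. The coefficient of variation fitted to the real sums ran from 0.075 in HSC/MPP-like to 0.181 in neutrophil-like cells. These shares therefore do not give the recovery of scarce members. The result for 1 listed pathway gene is not reported here.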

Additional observations from a re-analysis of the deposited data

Results flagged for a closer look

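In 13 cases the response of a receptor gene differed between another class and the GMP-like class by an edgeR test of the difference itself, given as the other class minus GMP-like on the log2 scale. HSC/MPP-like cells differed in Csf3r for vehicle against NTB (0.668, adjusted p = 0.0117) and BRQ against NTB (0.556, adjusted p = 0.00876) and in Kit for BRQ against vehicle (-0.505, adjusted p = 0.00735).

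In neutrophil-like cells, where 6.59% of all genes differed for vehicle against NTB, the differences were 1.98 for Kit (adjusted p = 0.00215), 3.65 for Csf1r (0.00222), 2.76 for Csf3r (0.000656), 0.782 for Csf2rb (0.0248), 1.45 for Csf2rb2 (0.0255) and 2.82 for Il6ra (0.00212). For BRQ against NTB, where 2.06% differed, they were 1.72 for Csf3r (adjusted p = 0.017) and 1.79 for Il6ra (0.0451). The share of cluster 2 in this class, 3.38% to 6.42% in NTB and 44.4% to 80.5% in vehicle mice, moved beside all of these, and its part was not tested. Monocyte/MDP-like cells differed for BRQ against NTB in Csf2ra (0.452, adjusted p = 0.0127) and Il6st (-1.16, adjusted p = 0.0151).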

How the results depend on the processing

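Counts of receptor genes called, with cells thinned to 4000 UMIs, were 1, 1 and 1 in Ms4a3-high GMPs (vehicle against NTB, BRQ against vehicle, BRQ against NTB; 333, 481 and 224 of all genes), 1 in HSC/MPP-like cells (vehicle against NTB), 1 in GMP-like (BRQ against vehicle), 3 in neutrophil-like (vehicle against NTB) and 0 in monocyte/MDP-like cells (vehicle against NTB and BRQ against vehicle). In neutrophil-like cells thinning turned Kit in vehicle against NTB from 1.34 to -0.14 (adjusted p = 0.921). This setting also left out cells with fewer than 4000 UMIs. With the limits of 500 and 7500 read as UMIs, which removes the deeper cells, no member was called in HSC/MPP-like cells (0) or GMP-like cells (0), and in neutrophil-like cells 1 was called in BRQ against vehicle and 5 in BRQ against NTB.

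DESeq2 called 1 in Ms4a3-high GMPs (BRQ against NTB), 3 in GMP-like cells (vehicle against NTB), 1 and 4 in neutrophil-like cells (BRQ against vehicle, BRQ against NTB), 1 in monocyte/MDP-like cells (BRQ against vehicle), and 1 and 0 in erythroid/MEP-like cells (vehicle against NTB, BRQ against NTB). Where edgeR called 3, DESeq2 called 2 in HSC/MPP-like cells (vehicle against NTB, BRQ against NTB). The same held in Ms4a3-high GMPs (vehicle against NTB, BRQ against vehicle) and monocyte/MDP-like cells (vehicle against NTB). In GMP-like cells it called 3 against 4 (BRQ against vehicle). Tag ratios in place of HTODemux gave 1 in Ms4a3-high GMPs (BRQ against NTB), 2 in GMP-like cells (BRQ against vehicle) and 1, 1 and 0 in monocyte/MDP-like cells. Without a filter on low counts, neutrophil-like cells had 3 (BRQ against vehicle) and 5 (BRQ against NTB), and erythroid/MEP-like cells 2 (BRQ against NTB). Without Scrublet's doublets or at resolution 0.5 neutrophil-like cells had 5 (BRQ against NTB). Resolution 0.5 or 1.2 gave 2 in monocyte/MDP-like cells (BRQ against vehicle), and 1.2 gave 3 in GMP-like cells (vehicle against NTB). An Ms4a3 limit of 2.5 called 4 members and 1744 of all genes in BRQ against NTB and 2509 of all genes in vehicle against NTB, and Ms4a3-high GMPs inside the GMP-like clusters gave 1 (BRQ against NTB).

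With library size as the only scaling, the median of all genes moved by 0.2 in Ms4a3-high GMPs for BRQ against vehicle and calls split into 1984 higher and 259 lower of 2243, against 628 and 761. For BRQ against NTB there the split was 1102 and 217 of 1319, against 264 and 357. It was 2360 and 265 against 666 and 859 in GMP-like cells (BRQ against vehicle), 1825 and 426 against 857 and 770 (BRQ against NTB), 672 and 128 against 255 and 287 in monocyte/MDP-like cells (BRQ against vehicle) and 394 and 48 against 229 and 83 in neutrophil-like cells (BRQ against NTB). No called receptor gene changed direction. Member counts were 4 in neutrophil-like cells (BRQ against NTB) and 1 in monocyte/MDP-like cells (vehicle against NTB).

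The pool as a replicate block called 2105 and 1217 of all genes in Ms4a3-high GMPs (BRQ against vehicle, BRQ against NTB), 6 members in GMP-like cells (BRQ against NTB; 2524 of all 11033 genes), 1 and 5 in neutrophil-like cells (BRQ against vehicle, BRQ against NTB; 34 and 1089 of 9538) and 2 in erythroid/MEP-like cells (BRQ against NTB; 63 of 8202), where without the block 1627, 10, 312 and 31 of all genes were called. In cluster 0 it gained calls of Csf1r for BRQ against vehicle (0.83, adjusted p = 0.032) and Csf2rb2 for BRQ against NTB (1.4, adjusted p = 0.0165). In cluster 1 it gained Csf2rb2 for vehicle against NTB (1.46, adjusted p = 0.0244). For BRQ against NTB it gained Kit (-0.46, adjusted p = 0.00202) and Csf2rb2 (1.72, adjusted p = 0.00599) there. Beyond these and those given beside the results it changed no other call of a receptor gene in the 6 units or clusters 0 to 7.

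Leaving out 1 mouse in turn, the counts in vehicle against NTB, BRQ against vehicle and BRQ against NTB ran from 1 to 4, 2 to 4 and 1 to 2 in Ms4a3-high GMPs (538 to 1500, 699 to 1477 and 227 to 775 of all genes), 1 to 4, 0 to 0 and 2 to 3 in HSC/MPP-like, 3 to 5, 1 to 4 and 2 to 5 in GMP-like, 2 to 6, 0 to 4 and 0 to 5 in neutrophil-like, 0 to 3, 1 to 4 and 0 to 1 in monocyte/MDP-like and 0 to 3, 0 to 0 and 0 to 2 in erythroid/MEP-like cells. Without BRQ 3 Csf2rb in cluster 0 turned to -0.43 for BRQ against vehicle (adjusted p = 0.0118), and over all such fits it ran from -0.43 to 0.26.

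Of 802 alternatives for called receptor genes, 607 kept the call, 194 lost it and 1 turned direction. The cause of these changes was not tested. Sums of too few cells kept the UMI limits from being fitted in Ms4a3-high GMPs, monocyte/MDP-like and erythroid/MEP-like cells, tag ratios, Scrublet and thinning in erythroid/MEP-like cells, and an Ms4a3 limit of 3.5.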
